A study of Mus musculus with 8 samples.

Results

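The genes described here are the receptors, SMAD proteins and a SKI-family repressor that carry TGF-beta and BMP signals, 10 of the 55335 genes in the deposited table. They were picked by name: the receptors Tgfbr1, Tgfbr2, Bmpr1a and Bmpr2, the signal carriers Smad1, Smad2, Smad3 and Smad4, the inhibitor Smad7 and the repressor Skil. All 10 were found, and 7 of them reached 1 FPKM (fragments per unit of transcript length, relative to all mapped fragments) in 4 libraries or more and were tested, while Tgfbr1, Smad7 and Skil did not. RNA came from RAW264.7, a mouse macrophage-like line derived from a tumour, kept for 3 days with either TABS (Trio-Active bone scaffold) or HA/Mg (hydroxyapatite carrying magnesium ions). Each material gave 4 libraries, called replicates 5 to 8. The labels name no other agent or genetic change, describe no cells without a scaffold, and do not say what TABS is made of. Sample titles give the groups. The deposited columns carry H for TABS and L for HA/Mg, letters whose meaning no label explains, and exchanged groups would reverse every direction below. No label says that the 4 libraries of a group were separate cultures, so p-values measure only the spread between libraries, which may be technical.

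Ligands of this family bind a type II receptor kinase, which activates a type I receptor kinase, which in turn phosphorylates a receptor-regulated SMAD. TGF-beta acts through the type II receptor TGFBR2 and the type I receptor TGFBR1 on SMAD2 and SMAD3, and BMPs act through receptors such as BMPR2 and BMPR1A on SMAD1 and its relatives. Both kinds of SMAD enter the nucleus with SMAD4, while SMAD7 blocks the receptors and SKIL, also called SnoN, represses SMAD target genes. In macrophages TGF-beta is known for restraining inflammatory activation, and bone matrix is a large store of it.

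Most macrophage markers were present. Of 10 macrophage markers, 8 were tested, among them Csf1r, at 95.1 to 117 FPKM, whereas Mrc1 and Mertk stayed at or below 0.0148 FPKM. Summed markers of osteoblasts and fibroblasts were 0.140 to 0.302 FPKM with TABS and 0.138 to 0.199 FPKM with HA/Mg. None of the 10 genes of that list was tested, and Bglap and Alpl were listed at 0 in every library. The summed macrophage markers were 2150 to 2510 FPKM with TABS and 1820 to 2250 FPKM with HA/Mg, and 2 of the 8 tested, Csf1r and Cd68, were higher with TABS. Summed osteoclast markers, of which 2 of 8 were tested, were 131 to 162 FPKM with TABS and 87.3 to 123 FPKM with HA/Mg. Mmp9 made up most of that sum and was higher with TABS (adjusted p = 0.0136, and 0.0392 with the length and GC trends removed), Dcstamp did not pass (adjusted p = 0.157), and Calcr was listed at 0. Summed T and B lymphocyte markers were 3.88 to 4.57 FPKM with TABS and 2.43 to 3.39 FPKM with HA/Mg. Of the 7 of these reported here, Cd79b alone was tested and was higher with TABS (adjusted p = 0.0222), while Cd3e, Cd3g, Cd4, Cd8a and Ms4a1 were listed at 0. The part of these marker genes in the results below was not tested, and in bulk RNA a change in the share of a cell type and a change in RNA per cell cannot be told apart. Between 9908 and 10280 genes reached 1 FPKM in a library, and the spacing of low values corresponds to 19900000 to 23600000 fragments. Across all 10161 genes tested with limma, 18.1% changed at an adjusted p under 0.05 (5.07% higher and 13.1% lower with TABS).

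None of the 7 tested genes passed the limma test, against the 18.1% of all tested genes that did. Bmpr1a and Smad1 lay at an unadjusted p under 0.05, as did 36.4% of all tested genes. Among the 7 tested genes the largest difference was that of Bmpr1a, with 1.33-fold less in TABS than in HA/Mg libraries, at an adjusted p of 0.0509. The groups overlapped for each of the 10 genes, of which only the 7 tested ones can be set beside all tested genes. Over all genes tested the groups did not overlap for 23.1%, and 7 genes are few to compare with that share. The median log2 change of the 7 genes was -0.131, TABS minus HA/Mg on log2(FPKM + 1), beside -0.0362 over all tested genes. When each library was corrected for its trend on transcript length and on GC content, again 0 of the 7 passed, against 6.37% of all tested genes (2.59% higher and 3.78% lower). Values below are listed in the order of replicates 5, 6, 7 and 8.

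**Figure D1:**
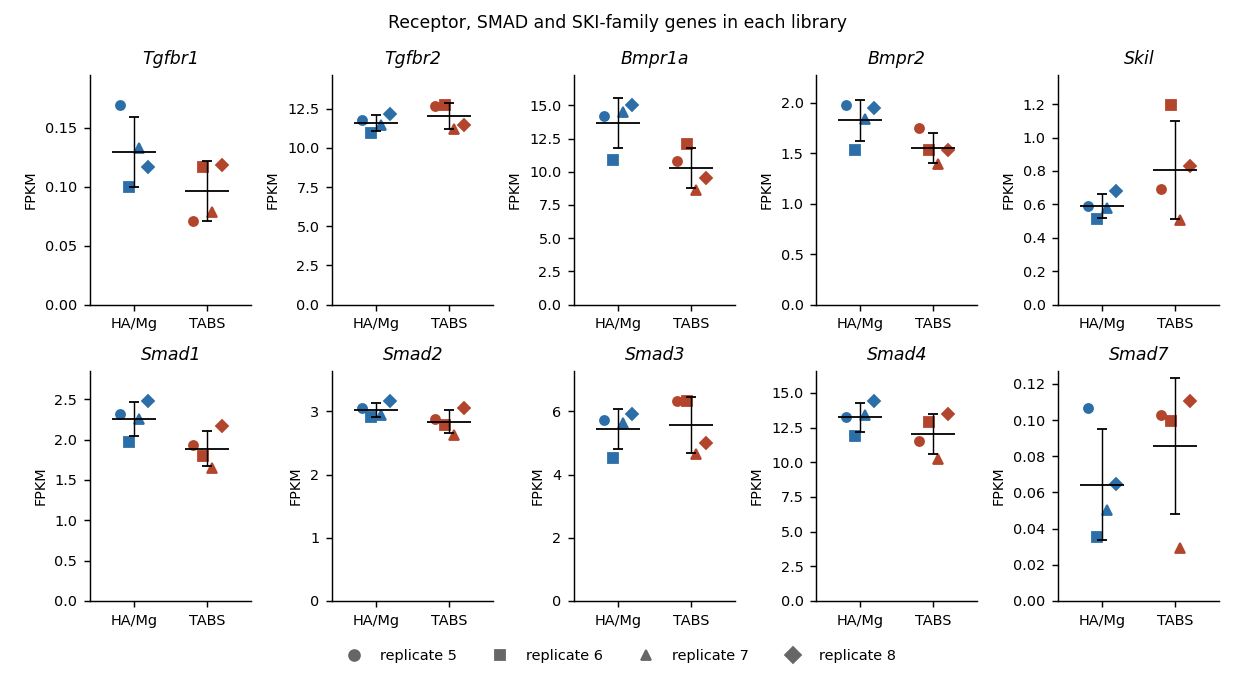
Level in FPKM (vertical axis, from 0) of the 10 genes in each library, with HA/Mg in blue, TABS in red, a symbol for each replicate number, and the mean and SD as black lines. The groups overlap in every panel, and HA/Mg replicate 6 (squares) is the lowest HA/Mg library in all 10.

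The receptors were listed at very unequal levels. Tgfbr2, the TGF-beta type II receptor, had a mean of 11.8 ± 0.669 FPKM over the 8 libraries (SD), above 62.4% of tested genes. Tgfbr1, its type I partner, had a mean of 0.113 ± 0.0312 FPKM. The within-library ratio of Tgfbr2 to Tgfbr1 was 96.3 to 179 with TABS and 69.3 to 110 with HA/Mg, so the gap was present in every library of both groups. For Tgfbr1, the implied depth corresponds to only 9 to 22 fragments per library over its longest transcript of 5756 bases. Whether this low value is the level of the transcript or comes from how the gene was quantified cannot be told from a table of FPKM values alone, and the ratio has the same limit.

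Promoter sequences are shown for these receptors because their listed levels are so far apart, within the limit just given for Tgfbr1. Each is the 250 bases just before the RefSeq start site, from the RefSeq promoter table of build GRCm38.p6, written 5′ to 3′ on the strand of the gene. Tgfbr1 was read on the plus strand from chr4:47352972-47353221 and Tgfbr2 on the minus strand from chr9:116175364-116175613. RefSeq gives Tgfbr1 another start as well, and the window printed is that of the upstream one. Capitals mark GGGCGG or its reverse complement, the GC box of SP1-family factors.
Tgfbr1: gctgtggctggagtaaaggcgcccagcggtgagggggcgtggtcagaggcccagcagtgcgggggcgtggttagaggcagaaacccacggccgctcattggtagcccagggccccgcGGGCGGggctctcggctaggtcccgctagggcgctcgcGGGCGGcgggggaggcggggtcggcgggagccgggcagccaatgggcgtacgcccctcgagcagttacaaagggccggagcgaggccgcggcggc
Tgfbr2: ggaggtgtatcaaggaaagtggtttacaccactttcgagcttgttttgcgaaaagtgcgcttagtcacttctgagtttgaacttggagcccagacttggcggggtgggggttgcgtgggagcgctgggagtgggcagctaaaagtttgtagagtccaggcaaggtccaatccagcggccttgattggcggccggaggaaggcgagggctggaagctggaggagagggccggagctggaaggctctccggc
The printed Tgfbr1 window held 2 GC boxes and 29 CG dinucleotides, with a GC content of 74.8%. The window of its downstream start (chr4:47385966-47386215, plus strand, not printed) held 0 GC boxes and 3 CG dinucleotides, with a GC content of 52.8%. The Tgfbr2 window held 0 GC boxes and 12 CG dinucleotides, with a GC content of 58.4%. Of 32851 RefSeq promoter windows of that length, 32.7% held a GC box on either strand, 93.2% had fewer CG dinucleotides than the printed Tgfbr1 window, 29.0% fewer than its downstream one and 66.5% fewer than that of Tgfbr2. CCAAT boxes (CCAAT, either strand, in 33.8% of all windows) numbered 2 in each of the printed windows and 0 in the downstream Tgfbr1 window. The SMAD box CAGAC, searched on both strands and present in 42.2% of all windows, occurred once in the Tgfbr2 window, once in the downstream Tgfbr1 window and not in the printed Tgfbr1 window. The GC-rich BMP SMAD element GGCGCC, present in 9.59% of all windows, occurred once in the printed Tgfbr1 window. It was absent from the downstream Tgfbr1 window and from that of Tgfbr2. The palindromic SMAD element GTCTAGAC, in 0.167% of all windows, was in none of these windows. These are matches of letters, and no binding was measured here. RefSeq windows were at hand for 6 of the 10 genes.

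On GRCm38, Tgfbr1 (ENSMUSG00000007613) spans 47353222 to 47414931 of chromosome 4 (plus strand), and Tgfbr2 (ENSMUSG00000032440) spans 116084293 to 116175360 of chromosome 9 (minus strand). Bmpr1a (ENSMUSG00000021796) covers 34410734 to 34503341 of chromosome 14 (minus strand), and Bmpr2 (ENSMUSG00000067336) covers 59763400 to 59879014 of chromosome 1 (plus strand). Smad1 (ENSMUSG00000031681) covers 79338395 to 79399518 of chromosome 8 and Smad3 (ENSMUSG00000032402) 63646767 to 63757994 of chromosome 9, both on the minus strand. Skil (ENSMUSG00000027660) covers 31095058 to 31122577 of chromosome 3 (plus strand). Smad2 (ENSMUSG00000024563), Smad4 (ENSMUSG00000024515) and Smad7 (ENSMUSG00000025880) all lie on chromosome 18. All 10 are annotated as protein-coding, and each value is given per gene. Bmpr1a shares 290 exonic bases with the antisense gene Gm17110, whose highest value in any library was 0.237 FPKM.

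Several other type I receptors of the family lay well above Tgfbr1. Acvrl1, a type I receptor for BMP9 and TGF-beta best known from vessels, ranged from 3.16 to 5.41 FPKM. Acvr1, a BMP type I receptor, ranged from 2.96 to 4.56 FPKM, and Acvr1b, the activin type I receptor, from 2.76 to 3.47 FPKM. Bmpr1b, Acvr1c, the co-receptor Tgfbr3 and the decoy receptor Bambi were listed at 0 in every library, and Eng, a co-receptor of endothelial cells, reached 0.564 to 0.958 FPKM. Among the type II receptors, Acvr2a (0.468 to 0.986 FPKM), Acvr2b (0.796 to 1.20 FPKM), Amhr2 (1.89 to 2.64 FPKM) and Bmpr2 (1.40 to 1.98 FPKM) all lay below Tgfbr2.

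**Figure D2:**
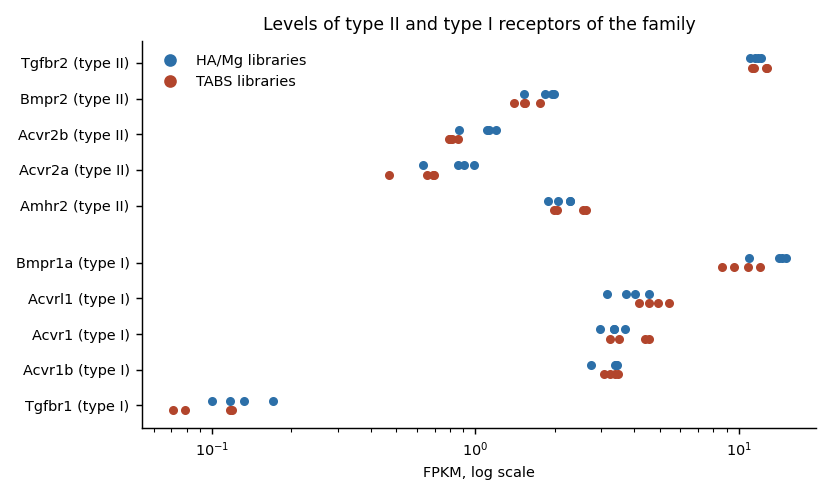
FPKM on a log axis of 5 type II and 5 type I receptors of the family, one point per library, HA/Mg in blue and TABS in red. Over the 8 libraries Tgfbr2 and Bmpr1a have means of 11.8 and 12.0 FPKM, with Bmpr1a at 10.3 FPKM with TABS and 13.7 FPKM with HA/Mg, and Tgfbr1 has a mean of 0.113 FPKM.

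Bmpr1a, a BMP type I receptor, was the member nearest to the threshold. The TABS libraries had 10.8, 12.1, 8.61 and 9.55 FPKM, and the HA/Mg libraries 14.2, 10.9, 14.5 and 15.1 FPKM. All TABS libraries lay below HA/Mg replicates 5, 7 and 8, but TABS replicate 6 lay above HA/Mg replicate 6. The means were 10.3 ± 1.501 FPKM with TABS and 13.7 ± 1.88 FPKM with HA/Mg (SD, n = 4 each). The log2 change was -0.381 ± 0.117 (SE, limma adjusted p = 0.0509, 95% interval -0.645 to -0.118). Bmpr1a passed without HA/Mg replicate 6 (log2 change -0.479, adjusted p = 0.00969) and without TABS replicate 6 (-0.456, adjusted p = 0.0429). It also passed with array weights, which are estimated from the spread of these same values (-0.414, adjusted p = 0.00899). It also passed at the edge with quantile normalization (adjusted p = 0.0498) and with robust moderation (adjusted p = 0.0473). Bmpr1a passed in only 6 of 22 alternatives, the last being that without TABS replicate 7 and HA/Mg replicate 6 together. Leaving out any single library other than replicate 6 of either group gave a limma adjusted p of 0.0820 or more. The adjusted p was 0.131 with a replicate block and 0.139 with no filter on low values.

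The transcript of Bmpr1a is long and poor in G and C, a property on which the libraries of the groups differed. Its longest transcript has 5956 bases and a GC content of 41.3%, and only 8.84% of tested genes were lower in GC. Each library's tilt on GC content, the slope of its log2 deviations on GC, was 0.0448 to 0.104 per 10 percentage points with TABS and -0.102 to -0.0297 with HA/Mg. With the length and GC trends removed, the change of Bmpr1a was -0.160 ± 0.072 (SE, limma adjusted p = 0.188). The GC tilts of the groups did not overlap, so trend removal also takes out any response to the material that follows GC content. A technical tilt and such a response cannot be told apart here.

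Tgfbr2 did not follow Bmpr1a. Its levels were 12.7, 12.8, 11.2 and 11.4 FPKM with TABS, and 11.8, 11.0, 11.5 and 12.1 FPKM with HA/Mg. TABS replicates 5 and 6 were the highest of all 8 libraries, and TABS replicates 7 and 8 lay within the HA/Mg range. The log2 change was 0.047 ± 0.058 (SE, limma adjusted p = 0.589), with a 95% interval of -0.084 to 0.178. Its direction turned in the scaling to equal sums, at -0.00016, and with the length and GC trends removed the change was 0.147 ± 0.041 (adjusted p = 0.0666).

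Within a library, the ratio of Bmpr1a to Tgfbr2 does not depend on the library's total. It was 0.850, 0.944, 0.769 and 0.835 with TABS, and 1.20, 0.992, 1.26 and 1.24 with HA/Mg. The groups did not overlap in this ratio, which was singled out after its values were seen and is given without a test. Every other ratio of these genes that was computed overlapped between the groups, among them Bmpr1a to Bmpr2 and Smad4 to Smad1. A ratio shows unequal change and not which of the genes moved. Tgfbr2 has a GC content of 49.6%, and with the trends removed the log2 changes were -0.160 for Bmpr1a and 0.147 for Tgfbr2.

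**Figure D3:**
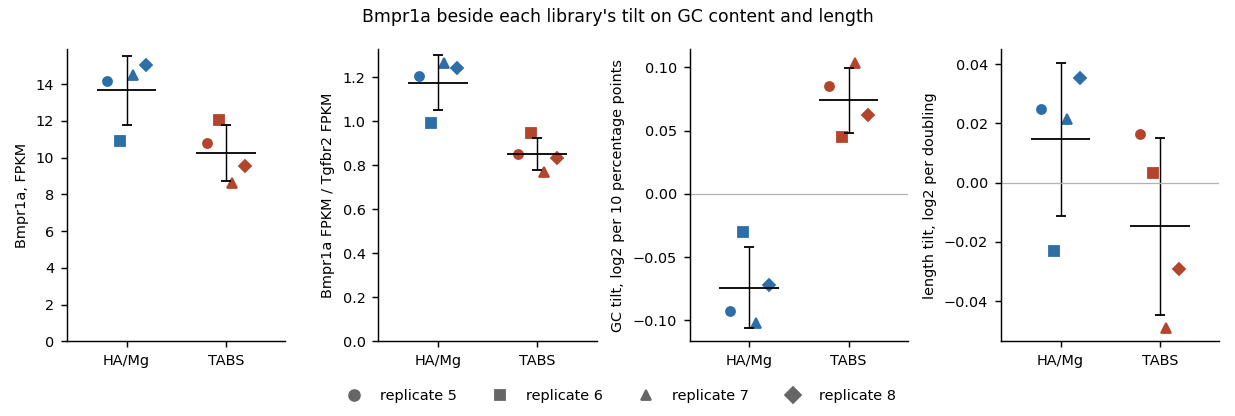
From left to right, Bmpr1a in FPKM, the ratio of Bmpr1a to Tgfbr2, the tilt on GC content (log2 per 10 percentage points) and the tilt on transcript length (log2 per doubling) in each library, with the mean and SD as black lines. The ratio and the GC tilt separate the groups completely, and HA/Mg replicate 6 lies nearest to TABS in both. The ratio was singled out after its values were seen, and the other ratios computed overlapped.

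Bmpr2, the BMP type II receptor, was low and showed a smaller difference. The TABS libraries stood at 1.75, 1.54, 1.40 and 1.53 FPKM, and the HA/Mg libraries at 1.98, 1.53, 1.84 and 1.95 FPKM. HA/Mg replicate 6 lay among the TABS libraries, and the other HA/Mg libraries lay above all of them. The log2 change was -0.145 ± 0.075 (SE, limma adjusted p = 0.191, 95% interval -0.314 to 0.024). This direction turned when the length and GC trends were removed, to 0.109 ± 0.056 (adjusted p = 0.244). The Bmpr2 transcript is 12899 bases long, longer than those of 99.4% of tested genes, with a GC content of 41.0%.

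Among the SMADs, the common partner Smad4 was the most abundant transcript. In order of mean level over the 8 libraries came Smad4 (12.6 ± 1.33 FPKM, SD), Smad3 (5.51 ± 0.714), Smad2 (2.93 ± 0.169), Smad1 (2.07 ± 0.282) and Smad7 (0.0749 ± 0.0338). The order from Smad4 to Smad1 held in all 8 libraries. Over all 10 genes, Smad4, Bmpr1a and Tgfbr2 could not be ranked: Smad4 exceeded Bmpr1a in 5 of 8 libraries and Bmpr1a exceeded Tgfbr2 in 3 of 8. Below them Smad3, Smad2, Smad1, Bmpr2, Skil and Tgfbr1 each exceeded the next in all 8 libraries, while Tgfbr1 exceeded Smad7 in 7 of 8.

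Smad1, the SMAD activated by BMP receptors, had 1.93, 1.80, 1.65 and 2.16 FPKM with TABS and 2.32, 1.97, 2.26 and 2.48 FPKM with HA/Mg. TABS replicate 8 lay above HA/Mg replicate 6, and otherwise TABS libraries were the lower ones. The log2 change was -0.176 ± 0.077 (SE, limma adjusted p = 0.132), with a 95% interval of -0.350 to -0.0025. Unlike that of Bmpr1a, it moved little when the length and GC trends were removed, to -0.158 ± 0.063 (adjusted p = 0.145). Its GC content of 51.5% lies above that of 59.8% of tested genes.

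Smad2 and Smad3, the carriers of TGF-beta signals, overlapped between the groups and did not pass. Smad2 stood at 2.84 ± 0.179 FPKM with TABS and 3.02 ± 0.113 FPKM with HA/Mg (SD, n = 4 each), a log2 change of -0.067 ± 0.059 (SE, limma adjusted p = 0.435, 95% interval -0.200 to 0.065). Its sign turned with quantile normalization (0.019) and with the length and GC trends removed (0.127, adjusted p = 0.214). Smad3 had 6.32, 6.33, 4.64 and 4.99 FPKM with TABS and 5.71, 4.51, 5.64 and 5.91 FPKM with HA/Mg. As with Tgfbr2, TABS replicates 5 and 6 were its highest libraries and TABS replicates 7 and 8 lay inside the HA/Mg range. Its log2 change was 0.024 ± 0.109 (SE, limma adjusted p = 0.895, 95% interval -0.220 to 0.268), and its direction turned in 4 of 22 alternatives.

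Smad4, the common partner of activated SMADs, stood at 12.0 ± 1.44 FPKM with TABS and 13.3 ± 1.05 FPKM with HA/Mg (SD, n = 4 each). The log2 change of Smad4 was -0.131 ± 0.087 (SE, limma adjusted p = 0.2999, 95% interval -0.327 to 0.064). The intervals of Tgfbr2, Smad2, Smad3 and Smad4 all lie between -0.327 and 0.268 on this scale, which bounds a difference and does not show that the groups were alike.

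**Figure D4:**
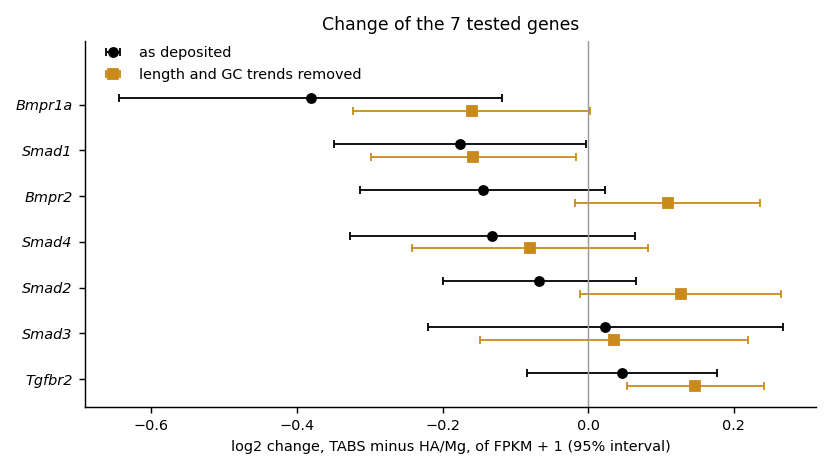
Log2 change (horizontal axis, TABS minus HA/Mg, of FPKM + 1) with its 95% limma interval for the 7 tested genes, as deposited (black) and with length and GC trends removed (orange). Bmpr1a moves from -0.381 to -0.160, and Bmpr2 and Smad2 cross 0.

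The inhibitor Smad7 was close to the limit of detection, and the repressor Skil was low. Smad7 had 0.103, 0.0997, 0.0295 and 0.111 FPKM with TABS, and 0.107, 0.0355, 0.0505 and 0.0644 FPKM with HA/Mg. These values correspond to 3 to 10 fragments per library. With no filter on low values the log2 change of Smad7 was 0.028 ± 0.030 (SE, limma adjusted p = 0.648). No difference was detected, and at this depth a difference could be missed. Skil had 0.691, 1.20, 0.508 and 0.8289 FPKM with TABS, and 0.593, 0.511, 0.577 and 0.679 FPKM with HA/Mg. TABS replicates 5, 6 and 8 lay above every HA/Mg library and TABS replicate 7 below every one. With the filter set at 0.5 FPKM Skil was tested, at a log2 change of 0.171 ± 0.106 (SE, limma adjusted p = 0.280). Tgfbr1, also near 0, had 0.0710, 0.117, 0.0786 and 0.119 FPKM with TABS, and 0.170, 0.0998, 0.133 and 0.117 FPKM with HA/Mg. With no filter its log2 change was -0.043 ± 0.024 (adjusted p = 0.384), on a scale that flattens changes at such levels.

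The same libraries were low for most of these genes. HA/Mg replicate 6 was the lowest HA/Mg library for 10 of 10 genes, and TABS replicate 7 was the lowest TABS library for 9 of 10. Over all tested genes those libraries were the lowest of their group for 50.1% and 41.2%. TABS replicate 7 also had the most negative tilt on transcript length (-0.0491 per doubling), and HA/Mg replicate 6 was the only HA/Mg library with a negative one (-0.0231). TABS replicate 8 had a negative tilt as well (-0.0291) and was the lowest TABS library for 0 of 10 genes. The part of these tilts in the low values was not tested. Without both libraries, an alternative chosen after seeing the data, Bmpr1a changed by -0.406 ± 0.080 (SE, limma adjusted p = 0.0130), and Smad1 (-0.180, adjusted p = 0.0887) and Bmpr2 (-0.167, adjusted p = 0.0870) did not pass.

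Across the 8 libraries some pairs of the tested genes varied closely together and others did not. Pearson's r of log2(FPKM + 1) was 0.937 between Tgfbr2 and Smad3, 0.881 between Bmpr1a and Bmpr2, and 0.949 between Smad1 and Smad2. It was 0.000597 between Tgfbr2 and Smad1, the lowest of the 21 pairs. These values describe 8 libraries that share depth and tilt, and carry no test. Among the 6384 genes averaging 5 FPKM or more, those most like Smad3 over the 8 libraries were Akna, Nfkbid and Tlr2 (r = 0.987, 0.980 and 0.978). Those most like Tgfbr2 were Lzts2, Stc2 and Gm15433 (r = 0.993, 0.988 and 0.985), and those most like Bmpr1a were Rbm26, Lpgat1 and Mbtps2 (r = 0.997, 0.994 and 0.994). Closest to Bmpr2 were Dag1, Vezf1 and Htt (r of 0.982 to 0.988), to Smad1 Rbmx2, Fgfr1op2 and Dusp3 (0.971 to 0.979), to Smad2 Erich1, Timm44 and Exosc7 (0.927 to 0.941) and to Smad4 Polr3e, Uhrf1bp1l and Chordc1 (0.942 to 0.965). For the members below the filter, the closest were Syf2, Pum3 and Cenph to Tgfbr1 (0.934 to 0.940), Ubl4a, Cpsf1 and Pcnx3 to Smad7 (0.876 to 0.958) and Brap, Hps1 and Spata2 to Skil (0.938 to 0.965). All of these genes were picked as the highest of 6384 correlations over only 8 libraries. The search itself selects a high r, and these values carry no test.

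Of the rest of the pathway, 65 tested genes other than the 10 are reported here, and 1 rose and 12 fell with TABS. The share that changed was 20%, beside the 18.1% of all tested genes. Their median log2 change was -0.087, and 3 of them changed once the length and GC trends were removed (Id2 higher, Klf10 and Sin3a lower). The ligand Tgfb1 was the only tested one of 15 ligand genes, and it rose from 56.9 ± 4.94 FPKM with HA/Mg to 67.9 ± 4.19 FPKM with TABS (SD, n = 4 each, log2 change 0.252 ± 0.067 SE, limma adjusted p = 0.0335). Tgfb1 lost its call when any 1 of the libraries except HA/Mg replicate 6 was left out (adjusted p of 0.0530 to 0.0949), and after trend removal (0.228, adjusted p = 0.0999). Bmp4 and Inhba were listed at 0 in every library, and Bmp2 and Bmp7 reached at most 0.025 and 0.0111 FPKM.

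Of the 11 tested target genes reported here, 1 fell and 10 did not pass, beside 13.1% of all tested genes that were lower. Their median log2 change was 0.047. Klf10, a transcription factor induced early by TGF-beta, fell from 3.86 ± 0.521 to 2.70 ± 0.094 FPKM (SD, n = 4 each, log2 change -0.387 ± 0.080 SE, adjusted p = 0.0168). Klf10 kept its call with the trends removed (-0.291, adjusted p = 0.0426) and lost it without HA/Mg replicate 7 (adjusted p = 0.0572). The BMP targets Id1 (0.354 to 0.861 FPKM), Id2 (0.481 to 1.57 FPKM) and Id3 (1.40 to 3.44 FPKM) were low. Id2 stood at 1.42 ± 0.135 FPKM with TABS and 0.948 ± 0.336 FPKM with HA/Mg and did not pass as deposited (adjusted p = 0.0867), but passed with the trends removed (log2 change 0.439, adjusted p = 0.0473). Id3 did not pass (adjusted p = 0.304) and Id1 was not tested.

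Regulators of the receptors and SMADs fell in part. Of 17 tested, 7 fell and 10 did not pass, beside 13.1% of all tested genes that were lower with TABS. Their median log2 change was -0.249, beside -0.0362 over all tested genes. With the length and GC trends removed 0 of the 17 passed, against 6.37% of all tested genes. Trim33, a ubiquitin ligase that binds SMADs, had 3.06 ± 0.422 FPKM with TABS and 4.58 ± 0.697 FPKM with HA/Mg (log2 change -0.457, adjusted p = 0.0256). Itch and Wwp1, ubiquitin ligases, changed by -0.366 and -0.390 (adjusted p = 0.0210 and 0.0192). Usp9x, which removes ubiquitin from SMAD4, changed by -0.357 (adjusted p = 0.0487). With 1 library left out at a time, Usp9x lost its call in 7 of 8 cases (all but HA/Mg replicate 6, adjusted p up to 0.127). The calls of Trim33 and Itch ended on leaving out TABS replicate 5, TABS replicate 7 or any HA/Mg library but replicate 6 (0.0506 to 0.0796), and that of Wwp1 on leaving out any HA/Mg library but replicate 6 (0.0513 to 0.0642). The other 3 that fell, named here after their values were seen, were Usp15, Cul1 and Strap. Usp15 passed without any 1 library, whereas Cul1 and Strap each lost their call in 6 of 8 such fits (adjusted p of 0.0515 to 0.0923 and of 0.0656 to 0.103). Among these fits Cul1 passed without TABS replicate 8 or HA/Mg replicate 6, and Strap without HA/Mg replicate 6 or 8. Strap also lost its call with median-of-ratios scaling and without the mean-variance trend.

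SMAD partners in the nucleus and the arm that runs through the kinase TAK1 each held 2 genes that fell. Over all tested genes 13.1% were lower with TABS, a share near that of both lists. Of 14 tested partners, 2 fell and 12 did not pass (median log2 change -0.119). Rbl1, a pocket protein that acts with E2F factors, changed by -0.412 (adjusted p = 0.0157), and Sin3a, a co-repressor scaffold, by -0.277 (adjusted p = 0.0197). Sin3a kept its call with the trends removed (adjusted p = 0.0439) and Rbl1 did not (0.0639). The call of Rbl1 ended on leaving out HA/Mg replicate 5 or 7 (0.0525 to 0.0550) and that of Sin3a on leaving out HA/Mg replicate 5, 7 or 8 (0.0554 to 0.0673). Of 14 tested genes of the TAK1 arm, 2 fell and 12 did not pass (median log2 change -0.137). They were Pik3r1, a regulatory subunit of PI3-kinase (-0.370, adjusted p = 0.0309), and the stress kinase gene Mapk9 (-0.269, adjusted p = 0.0139). Neither passed with the trends removed (0.0743 and 0.265). Pik3r1 lost its call without any 1 library but HA/Mg replicate 6 (adjusted p of 0.0515 to 0.0928), and Mapk9 without HA/Mg replicate 5 or 7 (0.0528).

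**Figure D5:**
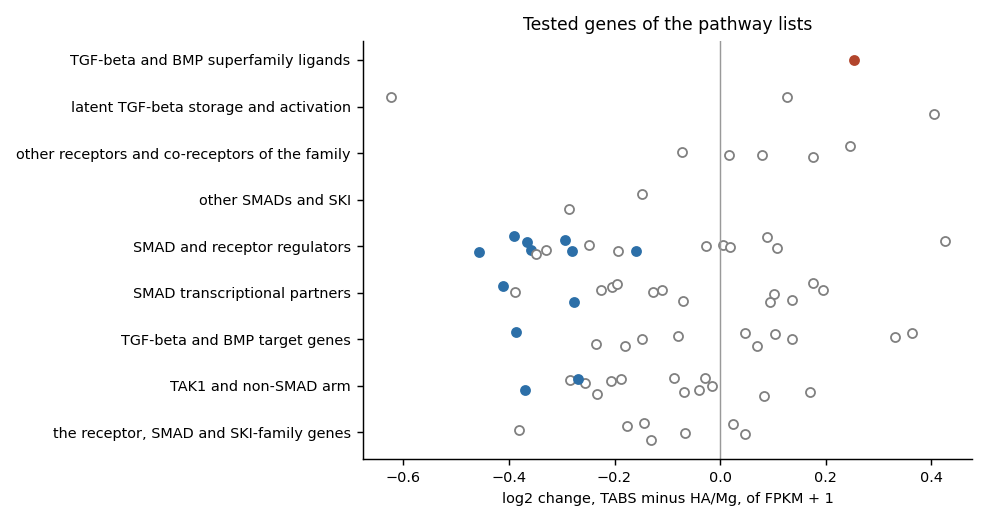
Log2 change (horizontal axis, TABS minus HA/Mg, of FPKM + 1) of each tested gene of the 8 pathway lists and, in the bottom row, of the 7 tested receptor and SMAD genes, with vertical scatter only to separate points. Filled points passed the limma test (red higher, blue lower), open points did not, and the bottom row holds open points only.

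In the remaining lists 0 genes passed. Of 5 other tested receptors the smallest p-values were those of Acvrl1 (4.77 ± 0.536 FPKM with TABS and 3.87 ± 0.588 FPKM with HA/Mg, adjusted p = 0.110) and Acvr1 (3.93 ± 0.653 and 3.34 ± 0.304 FPKM, adjusted p = 0.231). Of 2 other tested SMAD and SKI genes, Smad5, which carries BMP signals beside SMAD1, stood at 1.90 ± 0.249 FPKM with TABS and 2.54 ± 0.363 FPKM with HA/Mg (adjusted p = 0.0638). Ski, the founding member of the SKIL family, stood at 5.21 ± 0.395 and 5.88 ± 0.301 FPKM (adjusted p = 0.126). Of 3 tested genes that store or activate latent TGF-beta, Nrros, which anchors latent TGF-beta on myeloid cells, stood at 13.05 ± 6.12 and 19.3 ± 3.73 FPKM (adjusted p = 0.158). Furin, a protease that cleaves the TGF-beta precursor, stood at 13.3 ± 3.38 and 9.75 ± 2.42 FPKM (adjusted p = 0.201).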

How the data were processed

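The authors deposited 1 table of FPKM values for 8 libraries, and no counts were used here. Per the labels' protocols, RNA of integrity number above 7 went through the NEBNext Ultra kit and was read as paired reads of 150 bases on a NovaSeq. The tools fastp, STAR and DESeq2 and the build GRCm38 are named per the submitters' processing notes. What made the FPKM values, the annotation and any use of strand were not given in the sources used here. FPKM divides by length and by a library total, so it keeps any difference between libraries in recovery by length or GC content.

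Of 55335 identifiers, 55154 matched GENCODE M21 (GRCm38). Genes that reached 1 FPKM in 4 or more libraries entered limma 3.58.1 (R 4.3.3) on log2(FPKM + 1), with a mean-variance trend, two-sided, with Benjamini-Hochberg adjustment over 10161 genes and a threshold of 0.05. Log2 changes understate those of low genes. Only 26.6% to 32.3% of low values were whole fragments within 0.05 fragment, so fragment numbers are estimates, cover counting error only, and no count test was run. Trends on length and GC content of the longest transcript were removed per library with natural splines of 4 degrees of freedom.

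The genes, the 8 pathway lists and the 7 marker lists were chosen with earlier results of these data known. 1 gene of the target list and 1 of the lymphocyte markers are not reported here and enter no count over the lists. Named genes were the 10 themselves, up to 4 changed genes per list, by size of change, or else those with the 2 smallest p-values, and the 3 genes most alike per member. The steps were tested on simulated data. Other pseudocounts, filters, scalings, moderation, weights, a replicate block and left-out libraries were tried.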

Additional observations from a re-analysis of the deposited data

Results flagged for a closer look

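In groups of 4 libraries, a value was singled out where its gap to the nearest library exceeded Dixon's critical share of the group's range. Chance does this in about 1 of 20 groups, and it happened in 3 of the 46 groups examined. All 3 concern TABS replicate 7. Its Smad7 level was 0.0295 FPKM, against 0.0997 to 0.111 FPKM in the other TABS libraries. Its Pik3r1 level was 1.34 FPKM against 1.66 to 1.72 FPKM, and its Tgfb1 level was 74.2 FPKM against 65.6 to 66.0 FPKM.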

How the results depend on the processing

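Without 1 library, the number of changed genes ranged from 429 to 3320 (1842 with all 8), that of changed pathway genes outside the 10 from 1 to 26 (13 with all 8) and that of the 10 from 0 to 1. The highest counts came without HA/Mg replicate 6 and the lowest without HA/Mg replicate 5 (all genes) or 7 (pathway genes). All counts of 1 among the 10, here and below, are Bmpr1a. Without TABS replicate 7 and HA/Mg replicate 6 together, 2919 genes changed, with 26 pathway genes and 1 of the 10. With array weights the counts were 3532, 27 and 1, with no filter on low values 808, 5 and 0, and with the length and GC trends removed 647, 3 and 0. Quantile normalization and robust moderation gave 1 of the 10 each. With the replicate block 0 genes changed (2987 at an unadjusted p under 0.05, smallest adjusted p 0.0589), and 0 with the block and trend removal together (2223 and 0.0565). No label states that libraries with the same number are paired. The correlations of same-numbered deviations over genes were 0.0106, -0.275, -0.160 and 0.128 for replicates 5 to 8. Only TABS replicate 8 correlated best with its own number, and the largest correlation was 0.382, between TABS replicate 7 and HA/Mg replicate 6. Such correlations cannot exclude a pairing, because differences in tilt between libraries also enter them. The cause of the shifts in these counts of changed genes was not tested.

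Of the changed genes, 28.0% were higher as deposited, 45.5% with median-of-ratios scaling, 40.3% with quantile normalization, 40.6% with the trends removed and 13.9% after scaling to equal sums. Directions turned for Tgfbr2 (-0.00016) and Smad3 (-0.019) after scaling to equal sums, for Smad2 (0.019) with quantile normalization, and for Bmpr2 (0.109) and Smad2 (0.127) with the trends removed, with or without the block. Smad3 also turned without TABS replicate 5 (-0.031), TABS replicate 6 (-0.032) or HA/Mg replicate 6 (-0.049), in a range up to 0.094 over single left-out libraries. The directions of Bmpr1a, Smad1 and Smad4 held in all 22 alternatives. On the first principal component the group means lay 19.6 apart (two-sided exact permutation, p = 0.0286, which is the lowest value of 70 assignments, adjusted p = 0.0858 over 3 library measures). HA/Mg replicate 6 lay at 2.62, near TABS replicate 6 at 5.72, and the other HA/Mg libraries at -16.4 to -12.7. The means lay 18.3 to 23.8 apart without 1 library, of which 19.5 to 20.6 without 1 TABS library (exact permutation p = 0.0571). They lay 23.1 apart without TABS replicate 7 and HA/Mg replicate 6 (exact permutation p = 0.1, the smallest possible there). The share of FPKM in the 10 genes was 0.0138% with TABS and 0.0157% with HA/Mg (exact permutation p = 0.171), and the sum of FPKM was 342617 and 330810 (exact permutation p = 0.0857).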

Other observations

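Some genes of the pathway lists had levels that split the libraries across the groups. Mapk14, the gene of the stress kinase p38 alpha, stood at 26.8 FPKM in TABS replicate 8 and 27.8 FPKM in HA/Mg replicate 8, and at 11.1 to 12.8 FPKM in the other 6 libraries. Fkbp1a, which encodes the protein that holds type I receptors inactive, stood at 58.3 FPKM in TABS replicate 5 and at 52.4 and 49.6 FPKM in HA/Mg replicates 5 and 8. In the other 5 libraries Fkbp1a ranged from 96.2 to 128 FPKM. Nrros was at 20.1 and 15.9 FPKM in TABS replicates 5 and 7 but at 9.74 and 6.45 FPKM in TABS replicates 6 and 8, against 14.1 to 23.0 FPKM with HA/Mg. These genes were singled out after their values were seen.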
